A study of Mus musculus with 25 samples.

Results

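The let-7 microRNA precursors let-7d, let-7e, let-7f-1, let-7f-2, let-7g and let-7i and their relative mir-98 were followed in the mouse brain from young adulthood to old age. In the deposited count table they are the rows mmu-let-7d, mmu-let-7e, mmu-let-7f-1, mmu-let-7f-2, mmu-let-7g, mmu-let-7i and mmu-mir-98, picked by name, 7 of 1193 precursor hairpins, and 14 rows in all belong to the let-7 family. Small RNA was sequenced from brain hemispheres of male C57BL/6 mice, an inbred laboratory strain, with 5 libraries at each of 2, 9, 15, 24 and 30 months of age. No treatment or mutation is given in the labels, and age is the only difference between the groups that they name. The column names add the sequencing lane, where lane 3 held 5 ages and lanes 4 to 8 held 4 each. The titles give a different animal number to each of the 25 libraries, and these were taken as separate animals.

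A microRNA is cut from a hairpin precursor and guides Argonaute proteins to messenger RNAs that pair with its seed, the bases near its 5′ end. Nearly all let-7 microRNAs carry the same seed, and the family was found through a timing gene of the worm Caenorhabditis elegans and is known in mammals for repressing growth and pluripotency genes such as Lin28a, Hmga2 and Trim71. LIN28 proteins in turn block the cutting of let-7 hairpins, and let-7 accumulates in the brain as neurons differentiate. Which interval of adult life holds a change in these abundant microRNAs is what the comparisons between ages show.

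The mature 5′ arms are shown because they set what the counts can tell apart. The 7 hairpins carry 6 distinct 5′-arm sequences (RefSeq, GRCm38.p6), written 5′ to 3′ with the seed, bases 2 to 8, in capitals.
let-7i-5p: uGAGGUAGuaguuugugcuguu
let-7f-5p, made by both let-7f-1 and let-7f-2: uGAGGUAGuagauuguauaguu
let-7e-5p: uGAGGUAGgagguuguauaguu
miR-98-5p: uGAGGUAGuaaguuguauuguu
let-7d-5p: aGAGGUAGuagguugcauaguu
let-7g-5p: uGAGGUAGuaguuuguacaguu

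All 6 hold the seed GAGGUAG, and each is 22 bases long. Counted from 1 at the 5′ end, the changes from let-7f lie at A12U, A17G, U18C and A19U in let-7i, at U9G and A12G in let-7e, and at G11A, A12G and A19U in miR-98. In let-7d they lie at U1A, A12G and U16C, and in let-7g at A12U and U18C. Of the 21 pairs of hairpins, let-7f-1 and let-7f-2 are identical in this arm and the others differ by at least 2 and at most 6 bases. Only the 3′ arms separate the let-7f loci, shown here with the same bases 2 to 8 in capitals.
let-7f-1-3p: cUAUACAAucuauugccuuccc
let-7f-2-3p: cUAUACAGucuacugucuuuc

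A count in the table is a whole hairpin with any arm, as in the let-7i precursor, 85 bases long, with its 5′ and 3′ mature arms in capitals.
let-7i hairpin: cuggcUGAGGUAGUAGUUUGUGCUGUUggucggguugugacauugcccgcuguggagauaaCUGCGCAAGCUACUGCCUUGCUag

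The members lie at 5 places in the genome (GENCODE M21, GRCm38). let-7i is encoded on the minus strand of chromosome 10 (122985640 to 122985724), in an exon of the transcribed pseudogene D630033A02Rik. let-7f-1 (48537829 to 48537917) and let-7d (48536012 to 48536114) share the minus strand of chromosome 13, in exons of the long noncoding RNA 6720427I07Rik, with let-7a-1 262 bases from let-7f-1. let-7f-2 (151912346 to 151912428) and mir-98 (151913214 to 151913321) share the plus strand of chromosome X, in an intron of Huwe1, the gene of a ubiquitin ligase. let-7e is encoded on the plus strand of chromosome 17 (17830352 to 17830444), in an intron of Spaca6, between mir-99b and mir-125a. let-7g is encoded on the plus strand of chromosome 9 (106178840 to 106178927), in an intron of Wdr82.

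Total counts were 3.78 M to 9.52 M reads (median 5.61 M). Levels are CPM, the read count relative to a library size adjusted with TMM factors, and each member had at least 3862 reads in every library. The neuronal markers mir-124 and mir-9, summed over 6 of 6 listed hairpins, lay between 35762 and 48400 CPM, while mir-122 of liver stayed at or below 5.99 CPM. The 5 libraries of sequencing lane 3, 1 per age, stand apart from the other 20 in this series. The lane 3 library of 2 months was the highest of its age for 7 of 7 members, while at the other 4 ages the lane 3 library was below the mean of the rest for all 7. Values are therefore also given without lane 3.

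The 7 precursors held 3.84% to 6.13% of all reads in a library (median 4.69%) and 59.7% to 68.5% of the reads of the whole let-7 family. The hairpins are of like length, but adapter ligation differs between sequences, so the order of levels describes reads and not molecules. let-7f-2 and let-7f-1 led with means over all libraries of 14221 and 13503 CPM, followed by let-7g with 7210.0 CPM and let-7i with 6508 CPM. let-7d averaged 2847 CPM, let-7e 2258 CPM and mir-98 1053 CPM. let-7f-1 took 48.3% to 49.0% of the let-7f reads in each library, so the let-7f loci are close to 1 measurement printed in 2 rows.

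Between 24 and 30 months, the last interval, let-7i, let-7f-1, let-7f-2, let-7e, mir-98 and let-7d all rose, and let-7g did not pass the test. With edgeR's quasi-likelihood test over 425 precursors, 6 of the 7 members were called higher and 0 lower, where 6.12% of all tested precursors were called higher and 2.59% lower, 8.71% in all. The balance over all precursors moved with the scaling, with 26 higher and 11 lower under TMM, 20 and 23 with library totals, and 11 and 19 with upper-quartile scaling. The members' median log2 fold change was 0.38, against 0.00 over all tested precursors. With all libraries, none of the 3 earlier intervals gave a call among the members. Counts of calls were planned for each pair of adjacent ages. The fold changes of single members at 30 against 24 months were not among the planned results.

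let-7i, which in human cells represses the innate immune receptor TLR4, changed the most. Its levels in replicates 1 to 5 were 6444, 8069, 9079.9, 8968 and 7605 CPM at 30 months, against 6088, 5736, 6730.5, 5033 and 5738 CPM at 24 months. Of the 30-month libraries 4 lay above every 24-month library, and replicate 1 lay within the 24-month range. The mean was 8033 ± 1081 CPM at 30 months and 5865 ± 617 CPM at 24 months (SD, n = 5 each), a log2 fold change of 0.45 ± 0.09 (SE, edgeR adjusted p = 0.00164). The call held in each of 35 alternative settings, with log2 fold changes of 0.38 to 0.50.

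let-7f, known in human endothelial cells for favouring vessel sprouting, followed at a higher level per locus than let-7i. For let-7f-1 the 30-month libraries read 13012, 16065, 19092, 17620.2 and 15179.9 CPM, against 12328.5, 12032, 13727, 10648 and 12122 CPM at 24 months. Its log2 fold change was 0.41 ± 0.09 (SE, edgeR adjusted p = 0.00626). let-7f-2 averaged 17088 ± 2468 CPM at 30 months and 12748 ± 1157 CPM at 24 months (SD, n = 5 each; 0.42 ± 0.09, adjusted p = 0.00488). Summed into 1 row the let-7f loci gave 0.40 ± 0.09 (adjusted p = 0.00854). As with let-7i, 4 of the 30-month libraries lay above all 24-month libraries and replicate 1 did not.

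let-7e read 2137, 2648, 2993, 2763 and 2538 CPM at 30 months, against 1925, 1989, 2322, 1881 and 1954 CPM at 24 months. Its log2 fold change was 0.38 ± 0.10 (SE, edgeR adjusted p = 0.0241). mir-98, on the X chromosome beside let-7f-2, read 986, 1266, 1260.4, 1218 and 1091 CPM at 30 months, against 915, 928, 1052, 828 and 932 CPM at 24 months (0.32 ± 0.09, adjusted p = 0.0241). Again 4 of the 5 older libraries exceeded every younger one for both precursors, with replicate 1 the exception.

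let-7d, which in mouse neural stem cells targets the nuclear receptor gene Nr2e1, changed less than the other called members but had the smallest SE. Its mean was 3133 ± 307 CPM at 30 months and 2709 ± 89 CPM at 24 months (SD, n = 5 each). It read 2810.2, 3095, 3543, 3332 and 2883 CPM at 30 months, against 2745, 2697, 2842, 2614 and 2647 CPM at 24 months, a log2 fold change of 0.21 ± 0.05 (SE, edgeR adjusted p = 0.0201). let-7g stood at 7004, 7164, 8193, 7393 and 6343 CPM at 30 months, against 6373, 6870.3, 7766, 5779.6 and 6679.8 CPM at 24 months. The groups of let-7g overlapped widely, and its log2 fold change was 0.11 ± 0.10 (adjusted p = 0.605).

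**Figure D1:**
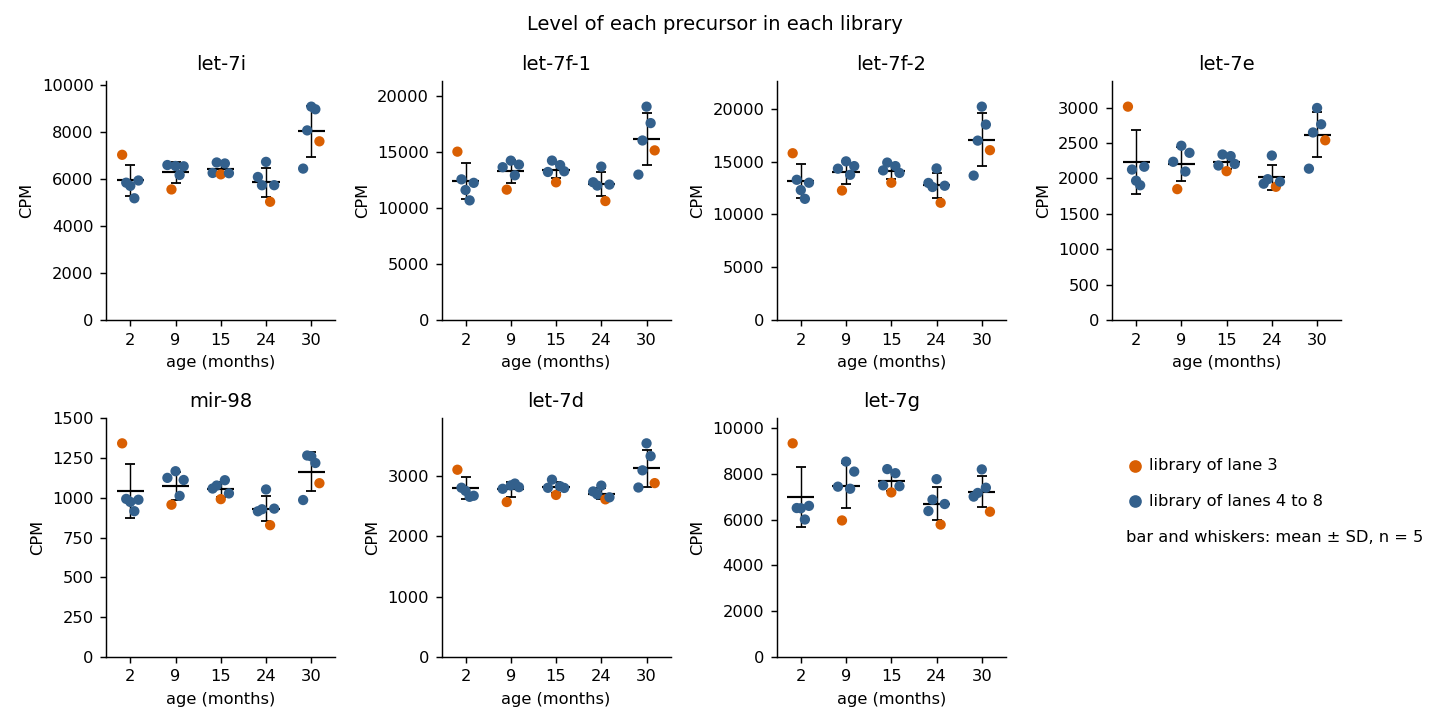
Level of each precursor (y axis, CPM from 0) in each library by age (x axis, months); points are libraries, orange for lane 3, and the bar and whiskers are the mean ± SD of 5. At 30 months 4 of 5 points exceed all 24-month points for every precursor but let-7g, and the orange 2-month point is the highest of its age in all 7 panels. How many of all tested precursors had 4 of 5 points above was not computed.

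The calls of let-7i, let-7f-1 and let-7f-2 were kept in all 25 refits that left out 1 library. Without 24-month replicate 1, without 24-month replicate 4 or without 30-month replicate 2, 4 members were called, let-7e and mir-98 being lost. In these refits 4.21% to 4.66% of all precursors were called higher, against 6.12% in the main fit. Without 24-month replicate 2 or 5, or without 30-month replicate 3 or 4, 3 were called and let-7d was lost as well. In these refits the log2 fold changes reached down to 0.30 for let-7e, 0.27 for mir-98 and 0.14 for let-7d (adjusted p up to 0.0897, 0.0827 and 0.112). Upper-quartile scaling, where 2.59% of all precursors were called higher, and testing without a filter on low counts, where 1.29% were, each also left 3 called. A fit on the 24- and 30-month libraries alone, where 4.25% of all precursors were called higher, left 5, let-7d being lost (0.20, adjusted p = 0.0595). Lane as a covariate (7.76% of all precursors higher) and the fit without lane 3 (4.04%) each kept 6. In 4 lanes with 1 library of each age, let-7i was higher at 30 months, by 0.41 to 0.66 on the log2(CPM + 0.5) scale. The other 5 called members were higher in 4 of 4 lanes too. These lanes hold libraries of the fit itself and leave out 30-month replicate 1, of lane 5, which had no 24-month partner. That replicate is the one that did not exceed every 24-month library.

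**Figure D2:**
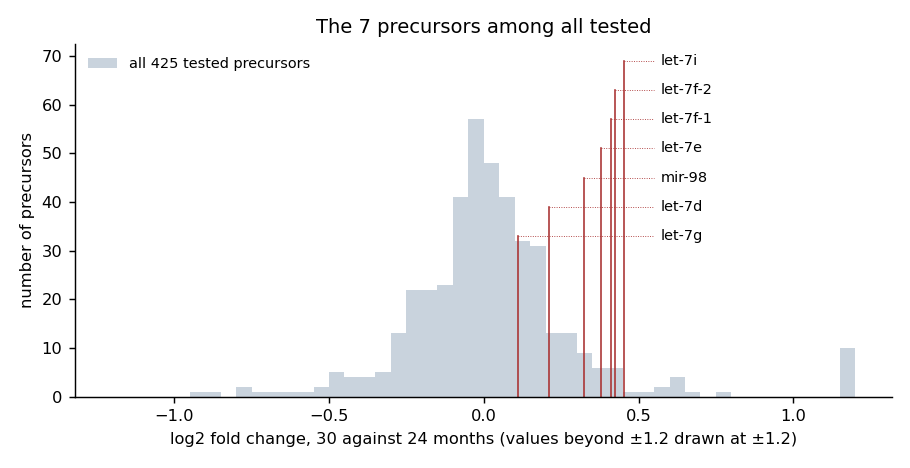
Histogram of log2 fold changes at 30 against 24 months (x axis) for 425 tested precursors (y axis, number of precursors), with red lines at the 7 let-7 and mir-98 precursors. The members lie between 0.11 and 0.45, to the right of the overall median of 0.00.

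With all libraries, the members' differences in the 3 earlier intervals were small and did not pass. From 2 to 9 months their log2 fold changes lay between -0.02 (let-7e) and 0.10 (let-7g), and 0 of 7 were called against 1.88% of all precursors higher and 5.88% lower, 7.76% in all. Without lane 3, let-7g was called higher at 9 than at 2 months (0.30 ± 0.06, SE, edgeR adjusted p = 0.00781), where 4.99% of all precursors were called higher. The other members then lay between 0.06 (let-7d) and 0.22 (let-7f-1), each above its value with all libraries. They did not pass (edgeR adjusted p from 0.0569 for mir-98 to 0.429 for let-7d). Outside the members, let-7a-1, let-7a-2, let-7b, let-7c-1 and let-7c-2 were also called higher in that fit (0.30 to 0.38, edgeR adjusted p from 0.0122 to 0.0361). From 9 to 15 months they lay between -0.03 (mir-98) and 0.04 (let-7g), with 0 of 425 precursors called by edgeR and 27 at an unadjusted p under 0.05, none of them a member, and DESeq2 also called 0 members. From 15 to 24 months all 7 lay below 0, between -0.20 (let-7g) and -0.05 (let-7d), with edgeR adjusted p from 0.441 to 0.712, where 0.235% of all precursors were called. let-7i stood at 6596, 5558, 6556, 6175 and 6543 CPM at 9 months and at 6259, 6705, 6199.97, 6663 and 6248 CPM at 15 months, a range that the 24-month libraries overlap.

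**Figure D3:**
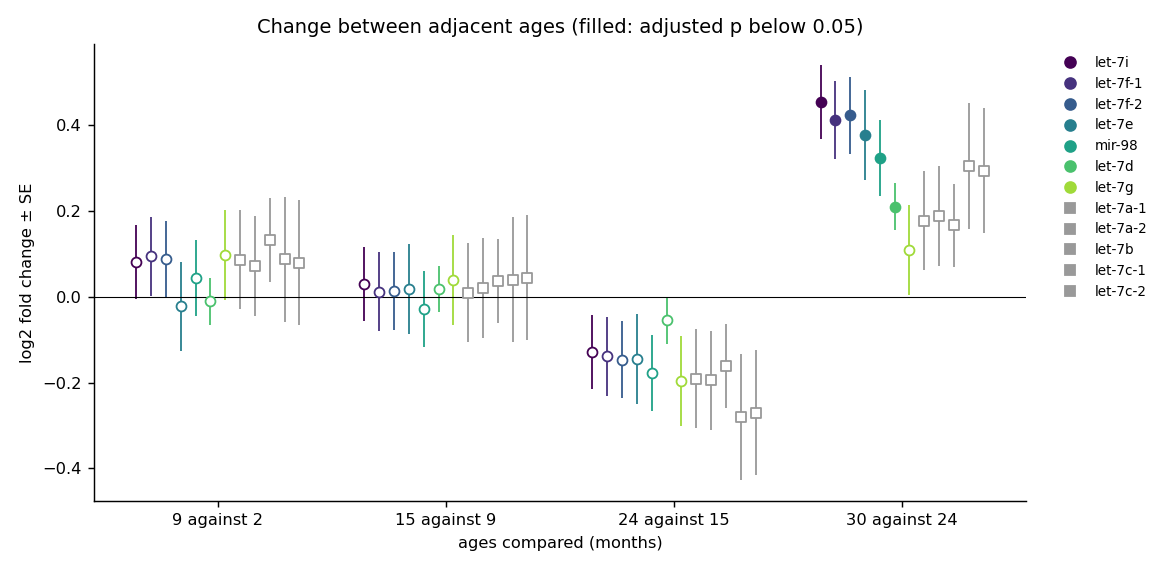
Log2 fold change ± SE (y axis) between adjacent ages (x axis, months) for the 7 precursors (circles, coloured) and 5 other let-7 precursors (grey squares); filled symbols have an edgeR adjusted p below 0.05. Filled symbols occur only at 30 against 24 months, for 6 circles and no square.

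Over the widest interval, 30 against 2 months, 4 of 7 members were called higher and 0 lower, where 19.1% of all tested precursors were called higher and 17.9% lower, 36.9% in all. With upper-quartile scaling 35.5% of all calls were rises, against 51.6% with TMM. let-7i averaged 8033 ± 1081 CPM at 30 months and 5941 ± 676 CPM at 2 months (SD, n = 5 each; log2 fold change 0.44 ± 0.09, SE, edgeR adjusted p = 3.73e-04), with 7031, 5845, 5710.02, 5182 and 5939 CPM in the 2-month libraries. The other calls were both let-7f loci (0.38 ± 0.09 each, adjusted p = 0.00239 for let-7f-1 and 0.00228 for let-7f-2) and let-7d. That of let-7d (0.16 ± 0.05, SE, edgeR adjusted p = 0.0219) was lost in 21 of 35 alternative settings, 16 of them refits without 1 library (log2 fold changes of 0.08 to 0.20 over the 35). let-7e (0.23 ± 0.10, SE, edgeR adjusted p = 0.0871), mir-98 (0.16 ± 0.09, adjusted p = 0.168) and let-7g (0.05 ± 0.10, adjusted p = 0.736) did not pass.

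For these 3 members the 2-month library of lane 3, replicate 1, lay far above the rest. let-7e read 3012 CPM in that library and 2125, 1967, 1903 and 2164 CPM in the other 2-month libraries. let-7g read 9332 CPM there and 6504, 6494, 6002 and 6599 CPM in the others, and mir-98 read 1342 CPM there and 993, 974, 915 and 987 CPM in the others. Without that library let-7e and mir-98 passed as well, with log2 fold changes of 0.31 and 0.22 (adjusted p = 0.00574 and 0.0196), let-7g did not (0.13, adjusted p = 0.286), and 6 members were called. Without all of lane 3 the 7 members were all called higher, where 18.8% of 421 precursors were, and let-7g then stood at 0.19 ± 0.06 (SE, edgeR adjusted p = 0.0201). In that fit let-7a-1, let-7a-2, let-7b, let-7c-1 and let-7c-2 were called higher too. Their log2 fold changes were 0.24 to 0.35 (edgeR adjusted p from 0.00322 to 0.0148), so the calls were not particular to the members. Within lane 3 itself let-7i was higher at 30 than at 2 months by 0.11 and let-7g differed by -0.56 on the log2(CPM + 0.5) scale. In the other 3 lanes with both ages the differences were 0.17 to 0.64 for let-7i and 0.11 to 0.31 for let-7g.

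Fewer members passed for a straight line on age. On the slope, 2 of 7 were called higher and 0 lower, where 19.5% of all precursors were called higher and 16% lower, 35.5% in all. They were let-7i at 0.13 ± 0.04 and let-7f-1 at 0.11 ± 0.04 log2 units per 12 months (SE, edgeR adjusted p = 0.0165 and 0.0478). The call of let-7f-1 was lost in 29 of 34 alternative settings and stood in the other 5, without 2-month replicate 1, 24-month replicate 4, 24-month replicate 5 or lane 3 and with library totals. That of let-7i was lost in 4, without 30-month replicate 2, 3 or 5 and with lane as a covariate (0.12, adjusted p = 0.0503). For any difference among the 5 ages, 4 of 7 passed, where 32.7% of all precursors did, led by let-7i (edgeR adjusted p = 9.98e-04). Without 2-month replicate 1, 9-month replicate 2 or 30-month replicate 1, 6 passed, and without 30-month replicate 3, 2 did.

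Shares within the family do not depend on how libraries are scaled. In the summed reads of the 7 precursors let-7i took 14.5% ± 0.421 at 30 months and 13.3% ± 0.319 at 2 months (SD, n = 5 each). No 30-month library overlapped a 2-month library (13.99% to 14.997% against 12.9% to 13.6%). The exact two-sided permutation test gave p = 0.00794, the smallest that 5 against 5 allows, and an adjusted p of 0.0278 over the 7 members. let-7f-1 took 29.2% ± 0.555 at 30 months and 27.9% ± 0.410 at 2 months, and let-7f-2 took 30.8% ± 0.650 at 30 months and 29.5% ± 0.450 at 2 months.

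Lower shares at 30 months were those of let-7g, let-7d and mir-98. The shares of the 7 members add up to the whole, so they constrain one another, and a lower share need not mean a lower level. By edgeR none of the members was called lower in level at 30 months. let-7g took 13.1% ± 1.21 at 30 months and 15.6% ± 0.888 at 2 months, let-7d 5.67% ± 0.243 at 30 months and 6.32% ± 0.444 at 2 months, and mir-98 2.11% ± 0.124 at 30 months and 2.33% ± 0.0826 at 2 months (SD, n = 5 each). The shares of both let-7f loci, let-7g, let-7d and mir-98 each had an exact adjusted p of 0.0278, while let-7e, with 4.72% ± 0.123 at 30 months and 4.98% ± 0.313 at 2 months, did not pass (0.0873). Against 24 months, a comparison added after the data were seen, the shares of let-7i (13.6% ± 0.321 at 24 months) and both let-7f loci were again higher at 30 months and those of let-7g (15.5% ± 0.541) and let-7d lower. Their exact adjusted p was 0.0333, and those of let-7e and mir-98 were 0.627 and 0.454. With the reads of the whole let-7 family as denominator, the call of let-7d was lost at 30 against 24 months (-0.316 percentage points, exact adjusted p = 0.0778) and those of let-7d (-0.286, 0.204) and mir-98 (-0.0906, 0.0667) at 30 against 2 months. The let-7g difference was then -1.33 against 24 months and -1.26 against 2 months (exact adjusted p = 0.0417 each), where it was -2.40 and -2.48 in the reads of the 7. Against 2 months, the 6 calls were each lost without 30-month replicate 2, 3 or 4 or 2-month replicate 1 or 4 (exact adjusted p = 0.0556), that of mir-98 without 30-month replicate 1 as well. Against 24 months, the 5 calls were lost without 30-month replicate 2, 3, 4 or 5 or 24-month replicate 2, 3 or 4 (0.0556 to 0.0667). Without lane 3 no share passed at 4 libraries per age (exact adjusted p = 0.0857 against 2 months and 0.12 against 24 months for those named), with each of them on the same side.

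**Figure D4:**
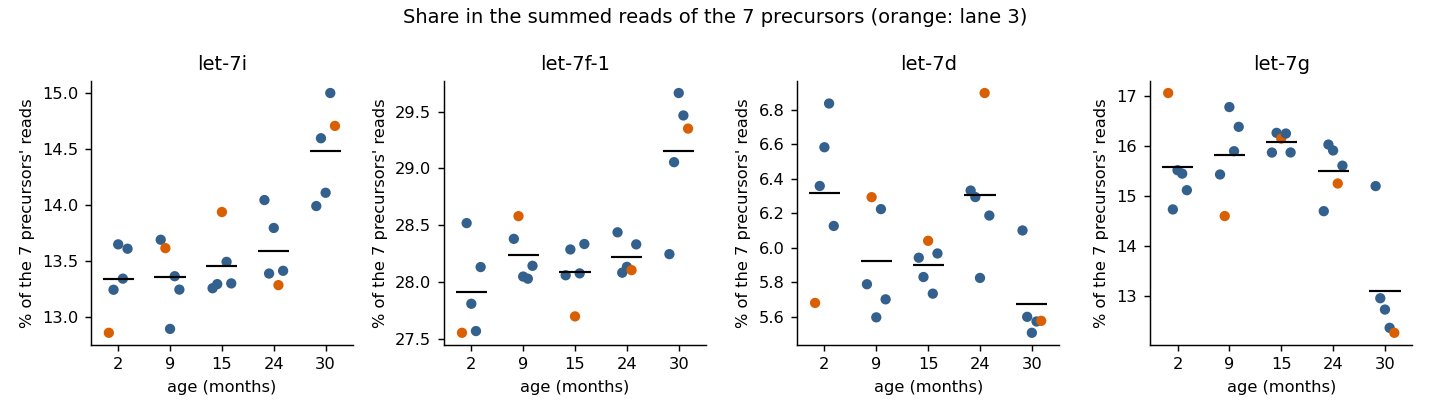
Share of let-7i, let-7f-1, let-7d and let-7g in the summed reads of the 7 precursors (y axis, percent, not starting at 0) by age (x axis, months); points are libraries, orange for lane 3, and bars are means of 5. At 30 months the let-7i points lie between 13.99% and 14.997%, above all 2-month points, and 4 of 5 let-7g points lie below those of every earlier age.

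Of 12 tests of ratios between neighbouring hairpins, 7 passed. Within the Spaca6 intron the log2 ratio of let-7e to mir-99b was -0.16 ± 0.20 at 30 months and -0.54 ± 0.15 at 24 months (SD, n = 5 each, exact permutation test, adjusted p = 0.0317 over 12 ratios chosen after the data were seen). That of let-7e to mir-125a, on the other side of let-7e, was -2.02 ± 0.26 at 30 months and -2.47 ± 0.22 at 24 months (adjusted p = 0.0408). Over that interval mir-99b had a log2 fold change of -0.01 and mir-125a of -0.09 (edgeR adjusted p = 0.968 and 0.416). mir-99b was lower at 30 than at 2 months, with a log2 fold change of -0.27 ± 0.07 (SE, edgeR adjusted p = 0.00278). The ratio of let-7e to mir-99b was also higher at 30 than at 2 months, by 0.51, without passing (exact adjusted p = 0.0595). At 30 against 2 months mir-125a lay at -0.09 ± 0.06 (edgeR adjusted p = 0.231), and the let-7e to mir-125a ratio differed by 0.33 (exact adjusted p = 0.105).

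In the cluster on chromosome 13 the log2 ratio of let-7d to let-7f-1 was -2.36 ± 0.09 at 30 months and -2.16 ± 0.09 at 24 months (SD, n = 5 each, exact permutation test, adjusted p = 0.0317). That of let-7f-1 to let-7a-1 was 1.44 ± 0.11 at 30 months and 1.21 ± 0.05 at 24 months (adjusted p = 0.0317), while that of let-7d to let-7a-1 differed by 0.02 (adjusted p = 0.788). On the X chromosome the log2 ratio of mir-98 to let-7f-2 was -3.87 ± 0.10 at 30 months and -3.66 ± 0.07 at 2 months (adjusted p = 0.0317). Against 24 months, at -3.78 ± 0.03, the mir-98 to let-7f-2 ratio did not pass (adjusted p = 0.105). Reads of let-7f-5p and of let-7a-5p, which let-7a-2 also makes, cannot be assigned to a locus by sequence.

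No other let-7 precursor was called in the last interval, and the difference between them and the 7 members was not tested. let-7a-1, let-7a-2, let-7b, let-7c-1 and let-7c-2 had log2 fold changes of 0.17 (let-7b) to 0.31 (let-7c-1) at 30 against 24 months, and 0 of 5 were called by edgeR (adjusted p from 0.221 to 0.398; unadjusted p under 0.05 for let-7c-1 alone, at 0.0484). Of the 30-month libraries, 3 lay above every 24-month library for let-7c-1 and let-7c-2, and 2 did for let-7a-1, let-7a-2 and let-7b. let-7k was at 0 in all libraries. Across the 25 libraries let-7g had a Pearson r of 0.95 to let-7a-1 and 0.57 to let-7i on log2(CPM + 0.5). let-7i and let-7f-1 had an r of 0.98. These r are descriptions over libraries that share depth and lane effects.

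let-7j, low in the table, bears on let-7i through its sequence. Shown with its difference from let-7f in capitals, its mature form holds all the bases of let-7i but 1, at G8U from let-7i to let-7j, and adds 2 bases at the 3′ end.
let-7i-5p: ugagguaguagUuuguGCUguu
let-7j: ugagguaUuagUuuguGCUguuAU
The change lies in the last base of the seed. The reads of let-7j, as a percentage of those of let-7i, went with the sequencing lane. They were 0.00193% to 0.0557% in lane 3, 0.299% to 0.382% in lane 4, 0.424% to 0.558% in lane 5 and 0.738% to 0.941% in lane 6. In lane 7 they were 2.23% to 2.45% and in lane 8 2.18% to 2.36%. The ranges of lanes 3, 4, 5 and 6 do not overlap, and each lane held 4 or 5 ages. What sets the share in a lane was not tested, and let-7j reads amounted to no more than 2.45% of let-7i reads in any library.

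**Figure D5:**
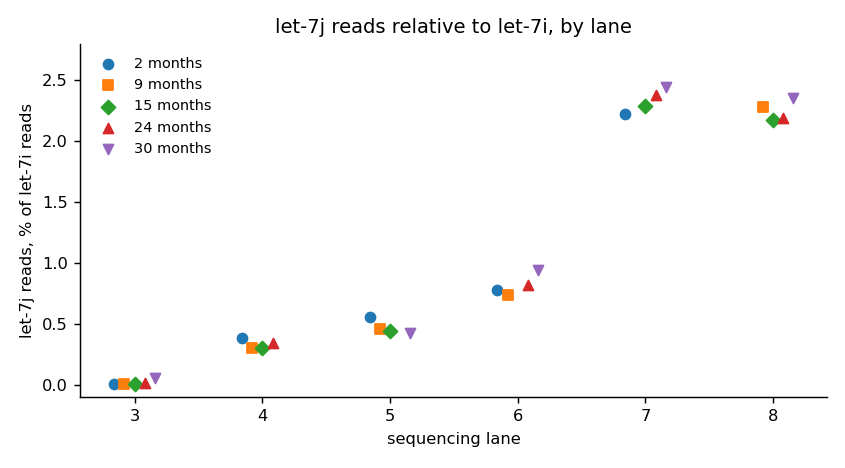
Reads of let-7j as a percentage of let-7i reads (y axis) by sequencing lane (x axis), with 1 symbol per library and its shape for age. Lane 3 lies at or below 0.0557% and lanes 7 and 8 at or above 2.18%, at every age they held.

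Outside the family, mir-1839 was among the 3 precursors most like 7 of 7 members over the 25 libraries, with a Pearson r of 0.59 (let-7g) to 0.87 (let-7e) among 312 precursors of at least 10 CPM. mir-383 was among the 3 for let-7d, let-7e, both let-7f loci and mir-98 (r of 0.68 to 0.80). mir-320 was among them for let-7g, let-7e and mir-98 (0.70 to 0.74). mir-181b-1 was among them for let-7d, let-7i and both let-7f loci (0.71 to 0.82), and mir-134 for let-7g (0.61). let-7i was also like mir-219a-1, of the oligodendrocyte miR-219 family (r = 0.82). Without lane 3 the r of let-7i was 0.84 to mir-219a-1, 0.88 to mir-1839 and 0.88 to mir-181b-1.

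Marker sums of other cell types are given for 30 and 24 months as descriptions. The 3 listed oligodendrocyte hairpins, of the miR-219 and miR-338 families, summed to 3612 to 4554 CPM at 30 months and 2869.8 to 3405 CPM at 24 months, without overlap. The 8 hairpins of the miR-200 and miR-183 groups, of epithelial and sensory cells, summed to 1170.4 to 8702 CPM at 30 months and 295 to 3257 CPM at 24 months, with overlap. Neuronal (38621 to 48400 CPM at 30 months against 35762 to 43625 CPM at 24 months), vascular (28599 to 31009 CPM against 28039 to 30629.7 CPM), erythroid (2523 to 4999.7 CPM against 2415 to 5548 CPM) and leukocyte sums (921 to 1091 CPM against 922 to 1225 CPM) overlapped. Choroid plexus sums (6467 to 7844 CPM against 6879.6 to 7553 CPM) and muscle sums (230.03 to 279 CPM against 217.9 to 253.998 CPM) overlapped too. Such sums can hide single hairpins. Of the muscle list, mir-1a-1 and mir-1a-2 were called lower at 30 than at 24 months (log2 fold changes -0.71 and -0.92, edgeR adjusted p = 0.0241 and 0.0205). mir-133a-1 and mir-133a-2 lay at 0.14 and 0.10 without a call. Of the leukocyte list, mir-150 was called lower (-0.26, edgeR adjusted p = 0.0261), while mir-142a, mir-223 and mir-155 lay above 0 without a call. Of these lists, 1 of 5 choroid plexus hairpins was at 0 in every library of both ages, and all others were detected. The part of these cell types in the let-7 result was not tested. In bulk tissue a change in cell numbers and a change in RNA per cell cannot be told apart.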

How the data were processed

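Per the labels' protocols, total RNA of brain hemispheres was made into libraries with the TruSeq small RNA kit, which carries no molecular identifiers. What the authors deposited is 1 table of raw counts for each hairpin, with 25 columns matched to samples by title. SAMtools 1.3.1-9, Trimmomatic 0.36 and bcl2fastq 1.8.4 are listed per the submitters' processing notes. How reads were aligned and counted, with which build and strand setting, and what became of reads matching several hairpins is not given in the sources used here, and this bears on the let-7f loci. Column names carry 6 sequencing lanes.

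From the counts, edgeR 4.0.16 (R 4.3.3) kept 425 precursors by filterByExpr and set aside 768, scaled by TMM (factors 0.952 to 1.04), and fitted all libraries with a mean per age, or age as a number, in the quasi-likelihood test. Benjamini-Hochberg adjustment ran over all 425, with calls at 0.05, and all 7 members passed the filter. The SE is the log2 fold change divided by the square root of F. Depth was 3.78 to 9.52 M reads, and errors and p-values measure the spread between animals. Between replicates chi-square per degree of freedom was 19.6 to 304, so none was a repeat deposit. On data simulated for 30 against 2 months over 421 precursors, 85% of 100 changes of 0.4 log2 units and 96% of 100 changes of 1 were recovered. The simulation set the same spread between animals for all precursors and no lane effect. Its rates therefore test the code and are not the chance of a call for the members.

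Shares and log2 ratios were tested with exact two-sided permutation tests (SciPy 1.17.1). Alternatives were RLE, upper-quartile and no scaling, other filters, DESeq2 1.42.0, only the ages compared, lane as a covariate, leaving out lane 3 or each library, and summing the let-7f rows. Named were the 7 members, the rest of the family, hairpins within 10 kb and the 3 precursors most correlated with each member. The members and lists were chosen with earlier results of these data known.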

Additional observations from a re-analysis of the deposited data

Results flagged for a closer look

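In the 35 groups of 5 libraries formed by 7 members and 5 ages, 5 single values lay far from the rest of their group. For independent groups chance alone marks about 1 in 20. The members were read in the same libraries, so these groups are not independent and the count cannot be weighed against that rate. At 2 months replicate 1, of lane 3, was the highest for let-7e (3012 CPM, others 1903 to 2164 CPM), for let-7g (9332 CPM, others 6002 to 6599 CPM) and for mir-98 (1342 CPM, others 915 to 993 CPM). At 9 months replicate 2, also of lane 3, was the lowest for let-7d (2569 CPM, others 2789 to 2876 CPM). At 24 months replicate 3 was the highest for let-7e (2322 CPM, others 1881 to 1989 CPM).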

How the results depend on the processing

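No paired analysis was possible because the replicate numbers were given in accession order and link no animal at one age to one at another. Relative to 4 members called at 30 against 2 months, 7 were called without lane 3 (18.8% of all precursors higher) and 2 of 6 rows with the let-7f loci summed. Leaving out 1 library gave 3 to 6. At 30 against 24 months, 3 of the main 6 were called with upper-quartile scaling and 3 with no filter, 5 with only 24 and 30 months, and 3 to 6 without 1 library. On the slope, where 2 were called, 1 was called with RLE scaling, upper-quartile scaling, no filter, the stricter filter, DESeq2 or the summed loci, 0 with lane as a covariate and 4 without lane 3, where 16.6% of all precursors were called higher (0 to 3 without 1 library). For any difference among ages, 7 were called without lane 3, where 36.3% of all precursors were, 2 with summed loci and 2 to 6 without 1 library, against 4; at 9 against 2 months 1, let-7g, was called without lane 3 (4.99% of all precursors higher) and 0 in every refit without 1 library. Of all precursors, 119 to 172 were called at 30 against 2 months, against 157.

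Upper-quartile scaling turned let-7g at 30 against 2 months to -0.0255 and the mir-98 slope to -1.73e-04; the let-7g slope was 0.023 without lane 3. Without 1 library, let-7g lay between -0.035 and 0.13 at 30 against 2 months and the mir-98 slope between -0.014 and 0.034; none of these was called. The share of mir-98 at 30 against 24 months was 0.00361 points higher with the whole family as denominator, and that of let-7e lay between -0.0116 and 0.120 without 1 library.

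Shares at 30 against 2 months kept their side but not the threshold without lane 3, with differences of -0.783 (let-7d), 1.10 (let-7f-1), 0.976 (let-7f-2), -1.89 (let-7g), 0.962 (let-7i) and -0.193 (mir-98) percentage points, and with the whole family as denominator for let-7d (-0.286) and mir-98 (-0.0906). Without 1 library they lay between -0.807 and -0.517 for let-7d, -0.324 and -0.122 for let-7e, 1.11 and 1.47 for let-7f-1, 1.06 and 1.49 for let-7f-2, -3.001 and -2.10 for let-7g, 1.01 and 1.26 for let-7i, and -0.268 and -0.186 for mir-98. Fewer samples raise the smallest p these tests allow, and whether this accounts for the lost calls was not tested. Of the calls at 30 against 2 months under each scaling, 51.6% were rises with TMM, 45.8% with library totals, 43.3% with RLE and 35.5% with upper-quartile scaling. The causes of the changes between settings were not tested.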
